A study of Mus musculus with 51 samples.

Results

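The analysis covered 9 genes whose RNA marks the endothelium of the liver sinusoids, Egfl7, Clec4g, Eng, Stab1, Stab2, Lyve1, Pecam1, Kdr and Fcgr2b. They were chosen by name as a gauge of cells other than hepatocytes, and all 9 were found among the 33773 gene symbols of the deposited expression matrix. RNA was sequenced from mouse hepatocytes in 4 groups and from mouse liver in 2. The FoxA triple null hepatocytes (4 libraries) came from mice with floxed FoxA1 and FoxA2 and no FoxA3 (FoxA1L/L/FoxA2L/L/FoxA3-/-), injected at 8 weeks of age with the viral vector AAV8-Tbg-Cre. The series' design text gives mice of those same alleles, injected with a GFP virus, as controls, and the FoxA3 null hepatocytes (4 libraries) are the group whose genotype fits this. Both of these groups therefore lack FoxA3, and an age at injection of 8 weeks is given for both. The FoxA1/A2 lox hepatocytes (3 libraries) carry the floxed alleles with no Cre in their label, and the FoxA1/A2 Cre alfp hepatocytes (4 libraries) carry Cre alfp as well. Both expressed Foxa3, and no age is given for either. Of the 6 liver samples, 2 are HNF4a control and 4 are HNF4a null by label. The design text describes the latter as depleted of HNF4a in the adult. Their Hnf4a RNA was higher than in the controls, as given below, and HNF4a protein is not among the values used here. Cre in the triple null mice was driven by the Tbg promoter, which the design text describes as specific to hepatocytes. The labels list 1 extraction protocol, written for hepatocytes, for all 21 libraries, liver included, and do not say how many mice were used or whether any were pooled.

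Liver sinusoids are lined by a fenestrated endothelium without a continuous basement membrane, which filters plasma and clears waste from the blood. Its cells take up hyaluronan, modified proteins and immune complexes through scavenger receptors, lectins and an Fc receptor, and they depend on vascular endothelial growth factor (VEGF) made largely by hepatocytes. Several of the markers are shared: Pecam1, Kdr, Eng and Egfl7 mark endothelium in general, Lyve1 also marks lymphatic vessels, and Stab1 and Fcgr2b are also expressed by macrophages.

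Levels are given in RPKM, reads scaled by gene length and library depth, so that levels of different genes can be compared. The targeted genes followed the FoxA labels. Foxa3 was at most 0.0114 RPKM in every triple null and FoxA3 null library and at least 19.0 RPKM in every lox and Cre alfp library, and Foxa2 was at most 0.470 RPKM in the triple null libraries against at least 11.1 RPKM in FoxA3 null. Foxa1 was at 3.28 ± 0.28 RPKM in the triple null against 8.50 ± 1.85 in FoxA3 null (SD, n = 4 each), so reads of Foxa1 remained. Hnf4a RNA was higher, not lower, in the libraries labelled HNF4a null. It was at 487 to 545 RPKM in these 4 libraries against 118 to 126 RPKM in the 2 controls. What this means for the protein was not tested, and directions between those groups are given for the libraries as labelled. In the same libraries the hepatocyte genes Apob, at 99.5 ± 6.7 against 875 ± 10 RPKM, and Asgr1, at 12.8 ± 3.2 against 402 ± 58 RPKM, were lower in those labelled null (SD, n = 4 and 2). The hepatocyte marker Alb was at 9868 to 14628 RPKM in triple null and at 21587 to 33240 RPKM in FoxA3 null, without overlap, so it was lower in the same libraries as the 9 genes. Its part in their levels was not tested. Triple null and FoxA3 null differ from lox and Cre alfp in FoxA3 genotype, and also in the injected virus that the design text names, so these cannot be told apart. Absolute depth is unknown. Relative depth, estimated from low values, put the liver libraries at 1.0 to 1.1 times the shallowest and the hepatocyte libraries at 2.01 to 4.07 times. The estimate moved widely with the reference library for 3 of the 21, HNF4a null GAGTGGA (1.04 to 2.08), FoxA3 null replicate 3 (2.05 to 4.09) and Cre alfp replicate 3 (2.03 to 4.06).

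The 9 genes were lowest in triple null hepatocytes, intermediate in the other hepatocyte groups and highest in liver. Summed over the 9 genes, the level was 16.3 ± 4.9 RPKM in triple null (SD, n = 4), 45.0 ± 9.0 in FoxA3 null (n = 4), 59.1 ± 28.5 in Cre alfp (n = 4) and 61.2 ± 15.4 in lox (n = 3). It was 176.8 ± 15.1 RPKM in the HNF4a control livers (n = 2) and 226.7 ± 8.2 in the livers labelled HNF4a null (n = 4). The triple null group had the lowest mean of all 6 groups for 9 of 9 genes, as it had for 15.6% of all 13398 genes tested, and the lowest single library of the 21 was a triple null library for each of them. All 6 liver libraries exceeded all 15 hepatocyte libraries for 8 of the 9, as they did for 13.2% of all genes. The exception was Eng, whose lowest liver library, at 12.3 RPKM, was just under the highest Cre alfp library, at 12.7 RPKM.

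**Figure D1:**
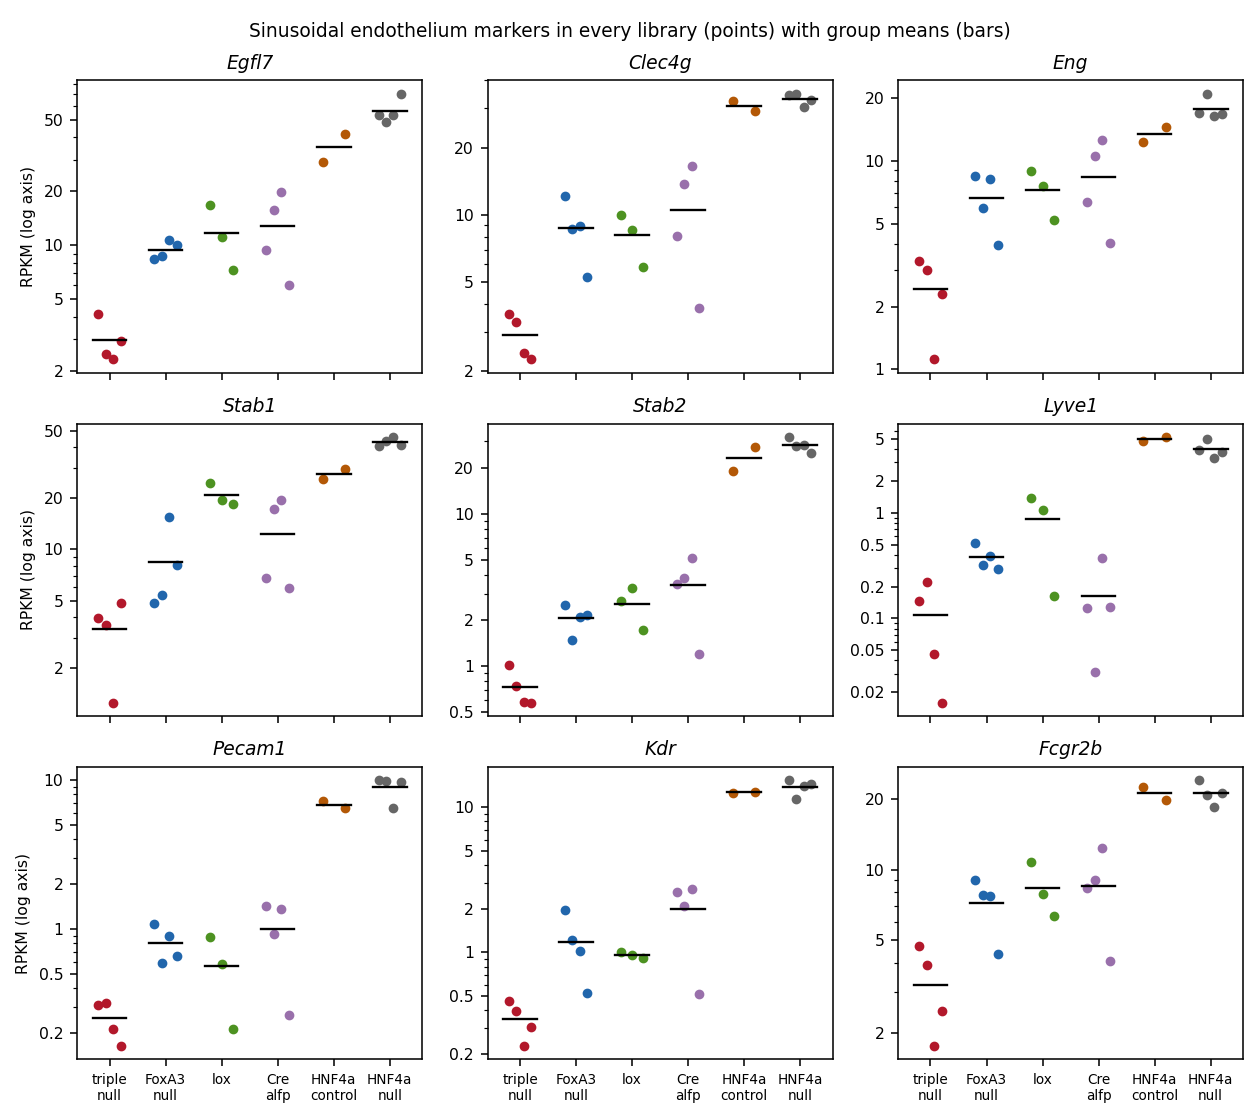
Expression of the 9 genes in each of the 21 libraries, in RPKM on log axes that differ between panels; points are libraries, ordered by replicate number or barcode, and bars are group means. The triple null group has the lowest mean in all 9 panels, and its libraries do not overlap the FoxA3 null libraries in 8 of them (all but Fcgr2b).

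With the 6 groups put in order of their means for each gene, 17 of the 45 steps between neighbouring groups separated their libraries completely, against 24.2% of such steps over all 13398 genes tested. Among the FoxA3 null, lox and Cre alfp groups, neighbours in that order overlapped for all 9 genes. The outer groups of these 3 were apart for Stab1, with FoxA3 null below lox. The step up from triple null separated the libraries for 6 genes from the next group (Egfl7, Clec4g, Eng, Stab1, Stab2 and Kdr), as it did for 3.17% of all genes. For Lyve1, Pecam1 and Fcgr2b the next group overlapped triple null. Egfl7, Eng and Stab1 were also separated between control livers and livers labelled HNF4a null.

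The genes differed in how much of the liver level hepatocyte libraries held. In FoxA3 null hepatocytes, Stab2 was at 8.86 ± 1.86% of its mean in control liver, Kdr, the main VEGF receptor of endothelium, at 9.35 ± 4.70%, Pecam1, an adhesion molecule of endothelial junctions, at 11.8 ± 3.3%, and the hyaluronan receptor Lyve1 at 7.57 ± 2.00% (SD, n = 4 each). The others were at higher fractions. Egfl7, a secreted matrix protein of endothelium, was at 26.8 ± 3.2%, the lectin gene Clec4g at 28.4 ± 9.1%, Stab1 at 30.2 ± 17.4%, Fcgr2b at 34.0 ± 9.4%, and Eng, a co-receptor for ligands of the TGF-beta family, at 49.6 ± 15.9%. In triple null hepatocytes all 9 lay between 2.16% (Lyve1) and 18.1% (Eng) of control liver. The mix of the 9 genes differed accordingly. Stab2 made up 13.2 ± 2.3% of their summed level in control liver (SD, n = 2) and 4.71 ± 1.19% in FoxA3 null, whereas Eng made up 7.57 ± 0.25% in control liver and 14.5 ± 2.6% in FoxA3 null. This contrast between genes was noticed in the data and was not tested. Tissue, genotype and depth differ together between liver and hepatocytes and cannot be told apart.

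**Figure D2:**
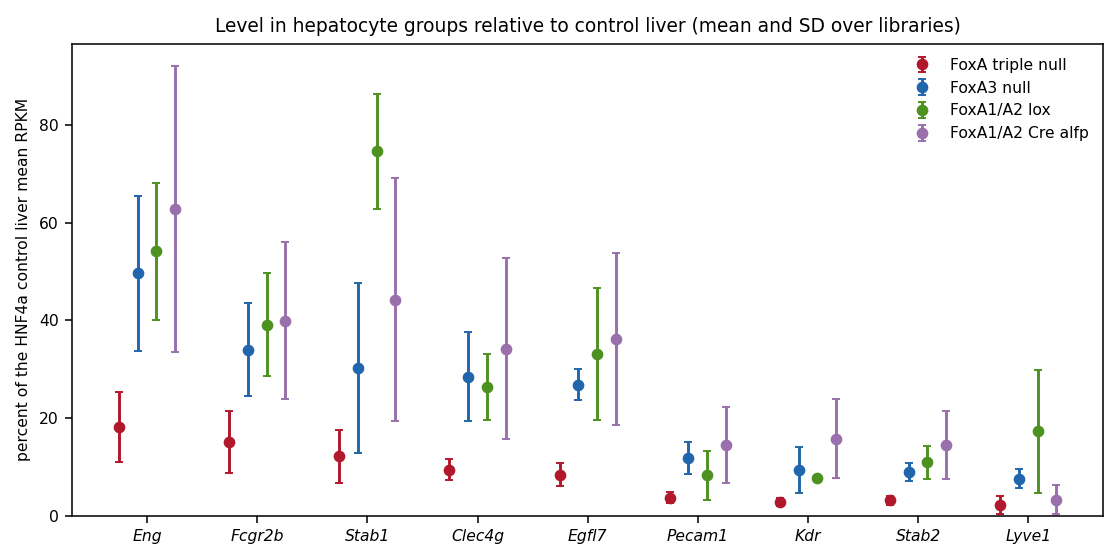
Level of each gene in the 4 hepatocyte groups as a percent of its mean in the 2 control livers; points are means and bars are SDs over libraries. Lyve1, Stab2, Kdr and Pecam1 lie below 18% in all 4 groups, while Eng reaches 62.7% in Cre alfp and Stab1 74.6% in lox.

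The comparison of control liver with FoxA3 null hepatocytes gave the size of these differences on the log2(RPKM + 1) scale, which understates changes of low genes. A gene was called when its limma p-value, adjusted by the Benjamini-Hochberg method over all tested genes, was under 0.05 and its difference was at least 1. Of the 9 genes, 8 were called higher in control liver, against 7.78% of all 13398 genes tested, with a median difference of 1.78 against -0.16 over all genes. Stab2 was higher by 2.98 (SE 0.29, adjusted p = 1.22e-07) and Kdr by 2.69 (SE 0.28, adjusted p = 3.06e-07). Eng differed by 0.96 (SE 0.35, adjusted p = 0.0284), short of the minimum difference. All 9 genes were without overlap between these 2 groups, as were 22.8% of all genes in that direction. Lists of other cells, described below, were also higher in control liver, so the rise was not particular to the 9 genes. Called higher were 15 of 18 tested Kupffer genes (median 1.96), 9 of 15 stellate genes (1.27) and 21 of 34 other endothelial genes (1.25). Of 11 hepatocyte genes, with a median of -0.35, 1 was called higher and 1 lower. Against lox hepatocytes, 7 of 9 were called higher in control liver, against 12.5% of all genes. There the differences of Eng, at 0.83 (adjusted p = 0.0620), and Stab1, at 0.41 (adjusted p = 0.462), missed the threshold.

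The comparison of triple null with FoxA3 null hepatocytes asks what loss of FoxA1 and FoxA2 does where FoxA3 is already absent. The 9 genes were all at lower mean levels in triple null, at 28.6% (Lyve1) to 44.4% (Fcgr2b) of FoxA3 null. Of the 8 that could be tested, 3 were called lower, Egfl7, Clec4g and Eng, against 3.95% of all 11500 genes. By the adjusted p alone, 5 were lower, against 12.3% of all genes, the additional ones being Stab2 and Fcgr2b. The median difference of the 8 was -1.02, against 0.05 over all genes. This median is a description only, since Kdr, Pecam1 and Stab2 passed the filter on low values only through groups other than triple null. That favours a negative value, also for Stab2 in the count of 5. Of all 9, 8 genes, all but Fcgr2b, had every triple null library below every FoxA3 null library, as had 11.8% of all genes. In such bulk samples, fewer endothelial cells and less RNA of these genes per cell cannot be told apart.

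Among the general endothelial genes, Egfl7 measured 4.15, 2.49, 2.31 and 2.94 RPKM across the 4 triple null libraries against 8.37, 8.71, 10.8 and 10.1 RPKM across the 4 of FoxA3 null. The groups did not overlap, and the highest triple null library was under the lowest FoxA3 null library. Egfl7 fell by 1.41 on the log2 scale (SE 0.30, adjusted p = 0.00289), and the call held in each of its 16 alternatives. Eng was at 3.29, 2.98, 1.12 and 2.31 RPKM in triple null and at 8.50, 5.95, 8.19 and 3.94 RPKM in FoxA3 null. It fell by 1.16 (SE 0.32, adjusted p = 0.0139). Triple null replicate 3 was its lowest library, and without it the difference was -0.95, under the minimum for a call, as it was without both that library and Cre alfp replicate 4. These are 2 of its 16 alternatives, and the call held in the other 14. Kdr was at 0.460, 0.394, 0.226 and 0.307 RPKM in triple null and at 1.96, 1.22, 1.03 and 0.526 RPKM in FoxA3 null. Its groups did not overlap, but its difference of -0.66 (SE 0.25, adjusted p = 0.0632) missed the threshold. Pecam1, at 0.164 to 0.320 RPKM in triple null and 0.595 to 1.08 RPKM in FoxA3 null, differed by -0.52 (SE 0.20, adjusted p = 0.0569). Kdr and Pecam1 reached 1 RPKM in no triple null library, and Stab2 in 1, so these 3 passed the filter on low values through the other groups.

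Among the clearance receptors, Clec4g was at 3.61, 3.31, 2.41 and 2.26 RPKM in triple null and at 12.1, 8.67, 8.95 and 5.25 RPKM in FoxA3 null. All triple null libraries were below all FoxA3 null libraries. Clec4g fell by 1.29 (SE 0.34, adjusted p = 0.0108), a call that also held in its 16 alternatives. Stab2, the scavenger receptor for hyaluronan, was at 1.02, 0.740, 0.585 and 0.577 RPKM in triple null and at 2.53, 1.49, 2.10 and 2.19 RPKM in FoxA3 null. Its difference of -0.82 (SE 0.25, adjusted p = 0.0241) was under the minimum of 1. Fcgr2b, the inhibitory receptor for immunoglobulin G, differed by -0.99 (SE 0.30, adjusted p = 0.0238), and its highest triple null library, at 4.70 RPKM, lay above its lowest FoxA3 null library, at 4.38 RPKM. The scavenger receptor gene Stab1 varied widely between libraries. It was at 3.95, 3.57, 1.25 and 4.81 RPKM in triple null and at 4.85, 5.39, 15.4 and 8.08 RPKM in FoxA3 null. Its difference of -1.06 (SE 0.41, adjusted p = 0.0632) missed the threshold and was -0.75 without FoxA3 null replicate 3. Lyve1 reached 1 RPKM in only 2 of the 15 hepatocyte libraries and was tested only without the filter on low values, where it differed by -0.32 (adjusted p = 0.322) from FoxA3 null and by -0.69 (adjusted p = 0.0243) from lox, under the minimum difference in both. On the same terms it differed by -0.07 (adjusted p = 0.897) from Cre alfp, and Cre alfp differed from lox by -0.63 (adjusted p = 0.140). Its triple null libraries, at 0.0159 to 0.223 RPKM, were below its FoxA3 null libraries, at 0.290 to 0.514 RPKM.

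The pseudocount of 1 mattered for the low genes. With a pseudocount of 0.1, 7 of the 8 tested genes were called lower in triple null, Stab2 at -1.40, Kdr at -1.43, Pecam1 at -1.36 and Fcgr2b at -1.19 among them, and Stab1 at -1.28 was the exception (adjusted p = 0.0546). At this pseudocount 6.02% of all genes were called lower, and the 7 include Kdr, Pecam1 and Stab2, which passed the filter only through the other groups. In the authors' deposited table of triple null against FoxA3 null, 7 of the 9 genes were listed and all 7 were lower with an adjusted p under 0.05, as were 22.1% of the genes in that table. Their log2 fold changes in the authors' deposited table ran from -2.07 (Egfl7) to -1.28 (Fcgr2b). The deposited table was computed from these same groups as labelled and is not independent of the values above.

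**Figure D3:**
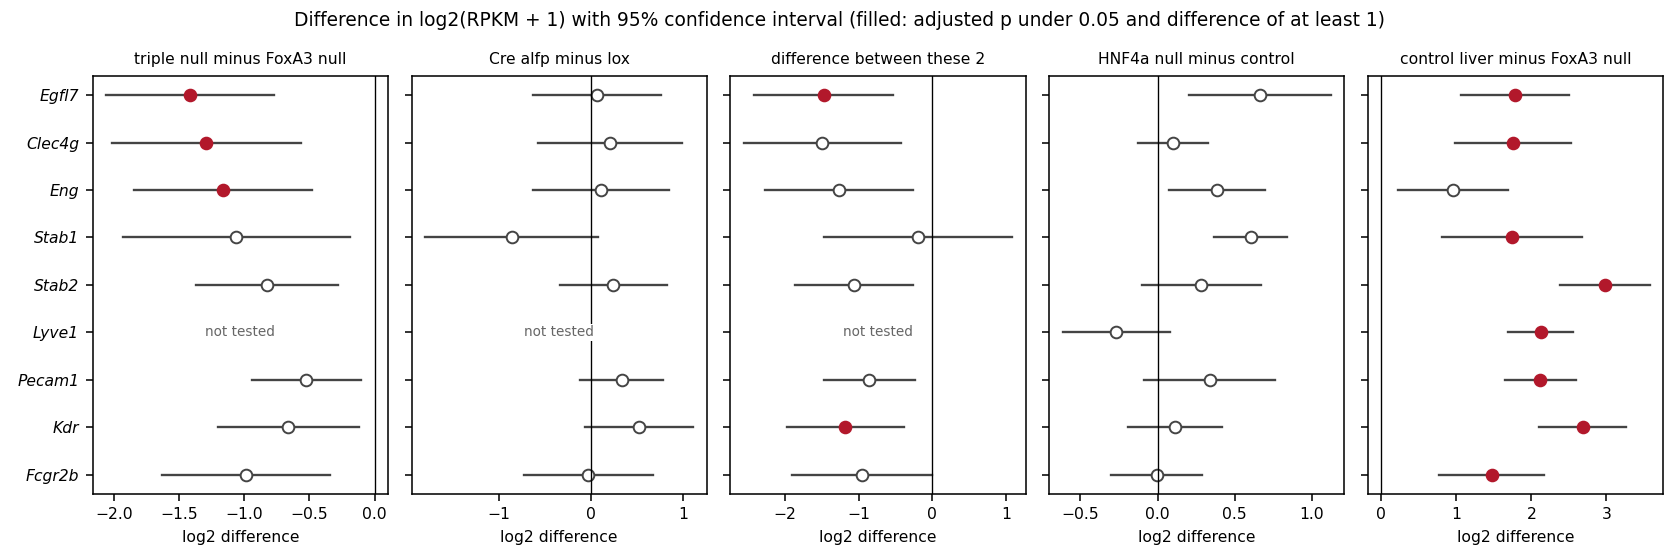
Differences of the 9 genes in log2(RPKM + 1) in 5 comparisons, with 95% confidence intervals from limma; filled points passed both thresholds, and each panel has its own axis. Egfl7, Clec4g and Eng are filled in the panel of triple null minus FoxA3 null, none is filled for Cre alfp minus lox or HNF4a null minus control, and 8 are filled for control liver minus FoxA3 null.

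The promoter sequences of the 3 called genes are shown because these genes moved together between triple null and FoxA3 null. Each is the 250 bases before a RefSeq transcription start (build GRCm38.p6), written in the direction of transcription, with capitals marking AGGAAG or its reverse complement CTTCCT, letters that hold the core bound by ETS factors, which act widely in endothelium. The windows are chr2:26580833-26581082 on the plus strand for the first listed of the Egfl7 starts, chr2:32646345-32646594 on the plus strand for Eng, and chr8:3720652-3720901 on the minus strand for Clec4g.
Egfl7: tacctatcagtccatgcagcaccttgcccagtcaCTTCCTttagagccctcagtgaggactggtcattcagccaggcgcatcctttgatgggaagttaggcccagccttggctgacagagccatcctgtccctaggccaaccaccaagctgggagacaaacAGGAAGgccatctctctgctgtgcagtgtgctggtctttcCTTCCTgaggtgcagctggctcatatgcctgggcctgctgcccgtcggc
Eng: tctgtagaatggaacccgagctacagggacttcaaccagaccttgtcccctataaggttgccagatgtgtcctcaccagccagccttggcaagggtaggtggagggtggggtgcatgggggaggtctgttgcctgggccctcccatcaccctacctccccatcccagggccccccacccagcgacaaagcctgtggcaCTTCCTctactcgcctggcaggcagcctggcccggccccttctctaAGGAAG
Clec4g: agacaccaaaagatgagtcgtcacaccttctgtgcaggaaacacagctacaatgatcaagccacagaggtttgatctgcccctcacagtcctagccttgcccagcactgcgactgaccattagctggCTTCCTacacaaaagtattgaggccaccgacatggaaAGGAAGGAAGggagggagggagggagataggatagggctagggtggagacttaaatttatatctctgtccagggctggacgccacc
The printed Egfl7 and Clec4g windows each held 3 matches and the Eng window 2, while the windows at the other Egfl7 starts held 1 and 0; in Clec4g, 2 of the matches overlap each other. RefSeq promoters were at hand for 7 of the 9 genes, in 9 windows. AGGAAG or CTTCCT was in 6 of these 9 windows (5 genes), against 29.5% of 32851 promoter windows of the same length. TGTTTA or TAAACA, letters found in forkhead sites, were in 1 of the 9, that of Fcgr2b, against 12% of all windows, and AGATAA or TTATCT, letters found in GATA sites, were in 0 of 9 against 9.99%. Matches of letters are descriptions of the sequence and not binding sites.

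Loss of FoxA1 and FoxA2 with FoxA3 present was compared between Cre alfp and lox. The loss differed from that in triple null. Foxa1 was at 1.24 ± 0.10 RPKM in Cre alfp (SD, n = 4) and 6.72 ± 1.81 in lox (n = 3), a lower remainder than in triple null. Foxa2 was at 1.09 ± 0.13 RPKM in Cre alfp and 12.5 ± 6.3 in lox, a higher remainder than in triple null. None of the 8 tested genes was called, against 2.38% of all genes, and none passed the adjusted p alone, in limma, whereas 5.46% of all genes did. At an unadjusted p under 0.05 the count was also 0. The median difference of the 8 was 0.16. Egfl7 measured 9.37, 15.8, 19.9 and 6.04 RPKM in Cre alfp against 16.8, 11.1 and 7.26 RPKM in lox. The ranges overlapped, and Egfl7 differed by 0.06 (95% interval -0.63 to 0.76). Clec4g differed by 0.21 (95% interval -0.58 to 0.99) and Kdr by 0.52. Stab1 had the lowest value of the 8, at -0.86 (95% interval -1.80 to 0.08, adjusted p = 0.324).

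The difference between these 2 effects was tested directly. It was negative for all 8 tested genes, with a median of -1.12 against 0.03 over all genes, which is a description only, since Kdr, Pecam1 and Stab2 passed the filter on low values only through groups other than triple null. Egfl7 and Kdr, 2 of the 8, were called, Egfl7 at -1.48 (SE 0.44, adjusted p = 0.0391) and Kdr at -1.18 (SE 0.37, adjusted p = 0.0479), against 3.54% of all genes in that direction. That filter favours a negative value for Kdr. Lyve1, fitted without the filter, had the other sign, at 0.31 (adjusted p = 0.603). In lists of other cells, described below, the interaction was negative for 16 of 16 other endothelial, 7 of 7 stellate and 11 of 14 Kupffer genes tested. Their medians were -0.915, -0.90 and -0.76, also as a description only. Called with a negative interaction were 5 of the 16 other endothelial, 2 of the 7 stellate and 0 of the 14 Kupffer genes. These counts are to be read against the same 3.54%, and the filter on low values favours negative values there too. Calls in that direction were therefore not particular to the 9 genes. Of the Kupffer genes, 2 were called with a positive interaction, and 0 of 3 tested cholangiocyte genes were negative. The count of called genes among the 9 was unstable. It was 0 without the filter on low values and 0 after quantile normalization, and it was 7 without Cre alfp replicate 4, where all 9 genes were below their group mean. With both that library and triple null replicate 3 left out, an alternative chosen after seeing the data, 6 of the 8 were called. Leaving out single libraries changed the count by more than 1.5 times for 14 of the 15 libraries, all but FoxA3 null replicate 4, with a range of 0 to 7. FoxA3 status, the kind of Cre and the remaining Foxa1 and Foxa2 differ together here and cannot be told apart.

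A further 3 comparisons set hepatocytes without FoxA3 against hepatocytes with it and share groups with those above. All genes together had medians of 0.13, 0.125 and 0.10 in them, in the order given here. Against lox, 6 of the 8 genes were called lower in triple null, against 5.81% of all genes. Stab1 had the largest difference among them, -2.39 (SE 0.44, adjusted p = 7e-04), while Pecam1 at -0.30 and Kdr at -0.55 missed the threshold. The 6 became 3 without lox replicate 1. They include Stab2, at -1.02, which passed the filter on low values only through groups other than triple null. The Stab2 result was weaker in 6 of its 15 alternatives. Against Cre alfp, 7 of 8 were called lower in triple null, against 5.03% of all genes. The 7 include Kdr and Stab2, which passed the filter only through groups other than triple null. Pecam1, at -0.63 (adjusted p = 0.0196), was under the minimum difference. Lists of other cells, described below, also had negative medians against Cre alfp, as a description only. Negative were 16 of 16 other endothelial, 7 of 7 stellate and 11 of 14 Kupffer genes tested, with medians of -0.83, -0.77 and -0.68. Called lower were 4 of the 16 other endothelial, 2 of the 7 stellate and 0 of the 14 Kupffer genes, against the same 5.03%. Of the Kupffer genes, 2 were called higher, a count given as a description only. Against lox the Kupffer median was 0.09. Between FoxA3 null and lox, 1 of 8 was called lower, Stab1 at -1.33 (SE 0.44, adjusted p = 0.0315), against 3.56% of all genes. Stab1 was at 24.6, 19.6 and 18.4 RPKM in lox, above all 4 FoxA3 null libraries. That call was lost without the filter on low values (adjusted p = 0.0843), and without any one of FoxA3 null replicates 1, 2 and 4 or lox replicates 1 and 2 (adjusted p from 0.0505 to 0.102). In the authors' deposited tables, all 7 listed genes were lower in triple null than in undeleted controls and all 8 listed were lower than in Cre alfp at an adjusted p under 0.05, as were 25.9% and 25.7% of all genes listed. Lyve1 had the largest change against undeleted controls in the authors' deposited table, -3.17. Those controls are named only as without deletion, so which libraries they were, and whether any lacked FoxA3, is not known here.

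The genes rose and fell together from library to library within a group. In the 15 hepatocyte libraries, with group means of log2(RPKM + 1) removed, the 36 pairs of genes correlated at a median r of 0.72, from 0.17 to 0.93. These points share library and depth, so the correlation is a description. In the 6 liver libraries the same 36 pairs had a median r of 0.11, from -0.90 to 0.91. All 9 genes lay below their group mean in triple null replicate 3, lox replicate 3 and Cre alfp replicate 4. They all lay above it in triple null replicate 1, lox replicate 1 and Cre alfp replicate 3. The mean deviation ran from -0.75 in Cre alfp replicate 4 to 0.56 in Cre alfp replicate 3. In RPKM, the summed level of the 9 genes was 26.0 in the former library and 90.5 in the latter.

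**Figure D4:**
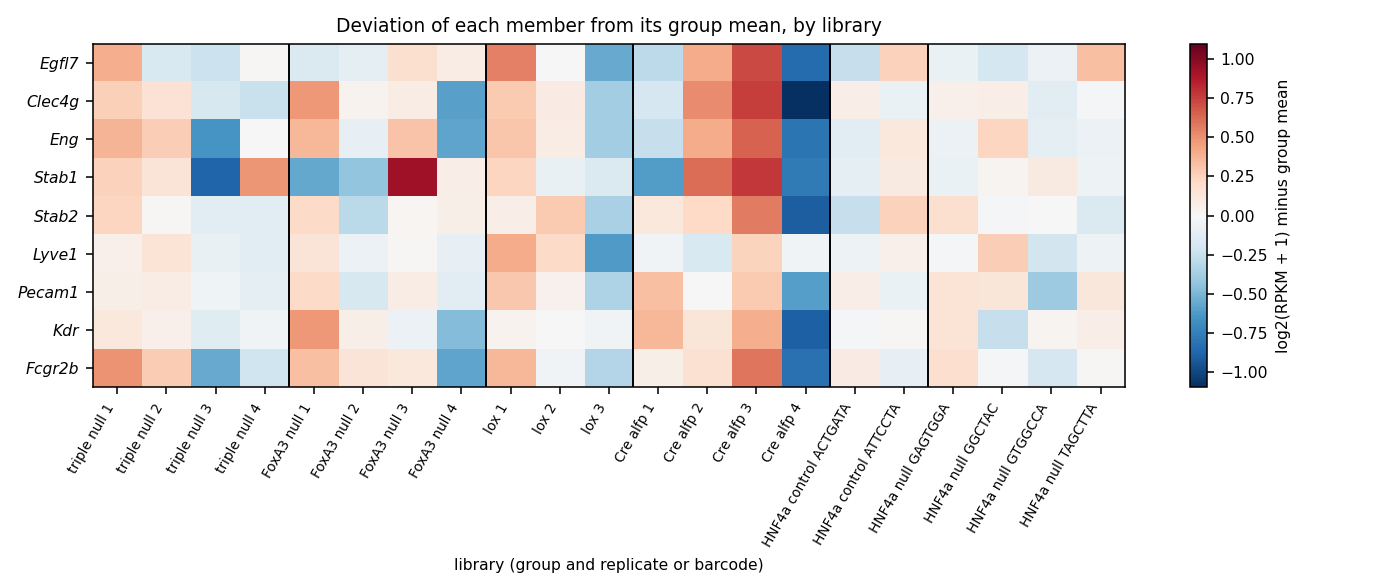
Deviation of each gene from its group mean in log2(RPKM + 1), red above and blue below, with libraries in columns and black lines between groups. All 9 genes share a colour in triple null replicates 1 and 3, lox replicates 1 and 3 and Cre alfp replicates 3 and 4.

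The genes whose deviations were most like the mean of the 9 over the 15 hepatocyte libraries were, in order, Dnase1l3 (r = 0.95), Pde2a, Smarca4, Sox18, H2-Aa, Gpihbp1, Gm9781, Rgs5, Ppap2a and Rcn3 (r = 0.90). Dnase1l3, a secreted nuclease, Sox18, a transcription factor of endothelium, and Gpihbp1, which carries lipoprotein lipase across endothelium, are 3 of the list of other endothelial genes. That list held 16 tested genes, with a median r of 0.83. The median r was 0.81 for the stellate cell list, 0.70 for the Kupffer cell list and -0.08 over all 11492 genes compared.

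Genes of other cell types were compared in the same triple null and FoxA3 null libraries. Of 40 other endothelial genes, 16 passed the filter on low values, and these 16 had a median of -0.69. Mean levels reached 1 RPKM for 6 of the 40 in triple null and 13 in FoxA3 null, so many of the 16 passed through groups where they are high, which favours negative differences, and their direction is given as a description only. Over all 11500 tested genes, 45.1% of differences were negative. Of the 16, 2 were called lower, against 3.95% of all genes, the water channel Aqp1 at -1.30 (adjusted p = 0.0238) and Plvap, a protein of endothelial diaphragms, at -1.04 (adjusted p = 0.0139). Their summed level over the 40 genes was 12.4 to 24.1 RPKM in triple null and 30.3 to 51.7 RPKM in FoxA3 null. Stellate cell and fibroblast genes had a median of -0.78 over 7 tested of 17, with 2 called lower, Colec11 at -1.25 and Reln at -1.15, against 3.95% of all genes, and a summed level of 16.7 to 61.4 RPKM against 55.4 to 83.4 RPKM. Reln averaged 0.736 RPKM in triple null and passed the filter through the other groups, so the stellate median is also a description only.

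Kupffer cell and macrophage genes were not called lower. Over 14 tested of 18 the median was -0.07, and 2 were called higher, Cd14 at 2.43 (adjusted p = 1.37e-08) and Mpeg1 at 1.81 (adjusted p = 1.10e-05). Of the 14, 10 had negative differences. The summed level of the 18 genes was 46.0 to 89.4 RPKM in triple null and 37.2 to 46.8 RPKM in FoxA3 null. That sum includes the 2 called genes. Cd14 averaged 8.56 RPKM in triple null and 0.781 in FoxA3 null, and Mpeg1 averaged 14.0 and 3.26 RPKM. Clec4f, a lectin of Kupffer cells, was at 7.84 ± 5.17 RPKM in triple null and 7.90 ± 1.12 in FoxA3 null (SD, n = 4 each). Of 10 neutrophil and monocyte genes, only S100a8 and S100a9 were tested, and both were called higher in triple null, at 3.48 and 2.69. The triple null libraries were very unequal for S100a8, from 3.93 to 91.3 RPKM. Summed over the 10 genes, the level was 9.86 to 113 RPKM in triple null against 0.972 to 2.24 RPKM in FoxA3 null. Only 2 of the 10 averaged at least 1 RPKM in triple null, so the sum does not describe the list as a whole. Ly6g, another gene of that list, was listed at 0 in every library of all 6 groups. Lymphocyte genes were at 1.95 RPKM or less in sum in both groups, and 0 of 12 were tested. Of 11 hepatocyte genes, 5 were called lower and 2 higher, with the largest falls in Asgr2 at -2.55, Hpx at -2.30 and Cps1 at -2.16. Krt23 of the cholangiocyte list was called higher at 3.76, while Krt19 and Epcam, which define cholangiocytes, stayed at 0.261 RPKM or less in both groups. Of 5 erythroid genes tested, Alas2 was called lower at -4.29 and 3 were called higher. Whether these shifts have a part in the levels of the 9 genes was not tested. The counts of these lists called lower are to be read against 3.95% of all 11500 genes called lower. No share of all genes called higher is at hand, so the counts called higher are descriptions only. With single libraries left out, 867 to 1034 genes were called in either direction.

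**Figure D5:**
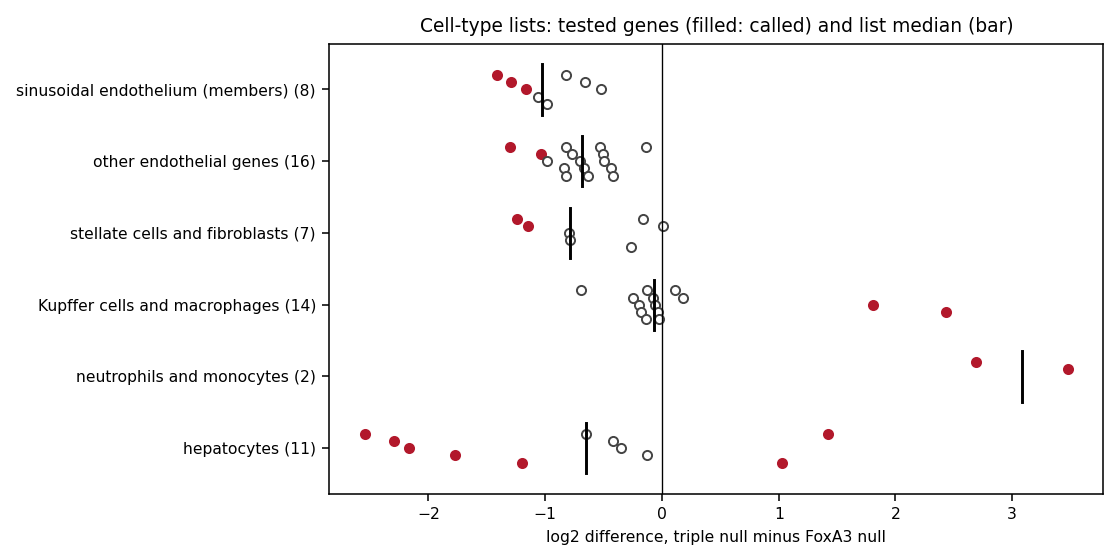
Differences between triple null and FoxA3 null in log2(RPKM + 1) for the tested genes of 6 cell-type lists, the number tested in brackets; filled points passed both thresholds and bars mark list medians. The 2 endothelial lists and 6 of the 7 stellate genes lie to the left of 0, with list medians from -1.02 to -0.69, while the Kupffer list is centred at -0.07.

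The counts of the pathway lists that follow are to be read against 3.95% of all 11500 genes called lower in triple null. No share of all genes called higher is at hand, so counts of genes called higher are descriptions only. With single libraries left out, 867 to 1034 genes were called in either direction. In the VEGF and angiopoietin pathway, 9 of 17 genes were tested, and 2 were called lower and 1 higher in triple null. The ligand gene Vegfb fell by 1.21 (adjusted p = 0.000285) and Angptl4, an inhibitor of lipoprotein lipase, fell by 1.01 (adjusted p = 0.0217). Nrp1, a co-receptor of VEGF, rose by 2.05 (adjusted p = 0.000223), from 16.5 ± 4.2 RPKM in FoxA3 null to 72.3 ± 21.6 RPKM in triple null (SD, n = 4 each). Vegfa, the main ligand of Kdr, was at 53.9 ± 13.2 RPKM in triple null and 77.4 ± 26.6 in FoxA3 null and was not called. In the BMP and TGF-beta pathway to which Eng belongs, 21 of 29 genes were tested, with Smad7, an inhibitor of the pathway, called lower at -1.03, Smad9 also called lower and the target gene Id1 called higher at 1.06. In the Notch pathway 1 of 6 tested genes was called, the target gene Hes1 at -1.76 (adjusted p = 0.00691). Among Fc receptors and C-type lectins 1 of 7 tested genes was called, which was Clec4g itself. Of 2 tested angiocrine factors, 1 was lower by the adjusted p alone.

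In liver, the comparison of the 4 libraries labelled HNF4a null with the 2 controls called 0 of 9 genes by limma, against 14.5% of all 12434 genes. By the adjusted p alone 3 were higher, against 41.1% of all genes, and the same 3 had an unadjusted p under 0.05. All genes together were shifted by a median of 0.34 in this comparison, and the median of the 9 was 0.28, so the median of the 9 did not exceed that of all genes. Egfl7 measured 53.2, 48.8, 53.3 and 70.3 RPKM in the null-labelled livers against 29.0 and 41.8 RPKM in the controls, a difference of 0.66 (SE 0.19, adjusted p = 0.0260). Stab1 differed by 0.60 (SE 0.10, adjusted p = 0.00307) and Eng by 0.38 (SE 0.13, adjusted p = 0.0438). These 3 were without overlap between groups, as were 52.6% of all genes in that direction. Lyve1 was at -0.27 (SE 0.15, adjusted p = 0.162) and Fcgr2b at -0.01 (SE 0.12, adjusted p = 0.970). After median scaling, none of these 3 passed the adjusted p, with Egfl7 at 0.40 (adjusted p = 0.142), Eng at 0.12 (adjusted p = 0.514) and Stab1 at 0.34 (adjusted p = 0.0506). Clec4g and Kdr turned from 0.10 and 0.11 to -0.17 and -0.16, and Lyve1 was at -0.54 (adjusted p = 0.0244), under the minimum difference. After quantile normalization, Eng was at 0.20 (adjusted p = 0.261). In the authors' deposited table for this comparison, 4 of the 9 were lower at an adjusted p under 0.05, Lyve1 at -0.74, Fcgr2b at -0.37, Clec4g at -0.32 and Kdr at -0.285, and none was higher, against 24.9% lower and 21.4% higher of all genes listed there. Of 34 tested other endothelial genes, 6 were higher by the adjusted p alone and none of those passed the minimum difference.

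Several other lists held called genes, to be read against 8.58% of all genes called higher and 14.5% called in either direction. The libraries labelled HNF4a null had 6 of 9 tested cholangiocyte genes called higher, led by Prom1 at 3.89 and Spp1 at 3.36, and 2 of 18 Kupffer genes, Marco at 1.82 and Mpeg1 at 1.11. In the pathway of endoglin 3 of 27 tested genes, Id1 at 2.56, Bmp7 at 1.77 and Smad9 at 1.24 were called higher, and in the Notch pathway 1 of 8, Notch1 at 1.09. Of 11 tested genes, Clec2d was called lower at -1.82 among Fc receptors and lectins. Of 11 hepatocyte genes, 7 were called lower, led by Asgr1 at -4.89, and 2 higher.

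The authors' deposited tables also hold hepatoblasts and newborn hepatocytes against adult hepatocytes, and there the 9 genes took both directions. In the table for hepatoblasts, 4 of 9 were lower and 1 higher at an adjusted p under 0.05, against 37.9% and 41.3% of the genes it lists. In this authors' deposited table, the lectin gene Clec4g was at -8.64, Fcgr2b at -3.51, Lyve1 at -3.32 and Stab2 at -1.81, whereas Kdr was at 1.29. Egfl7, Eng, Stab1 and Pecam1, from -0.34 to 0.61 in the authors' deposited table, did not pass. In the authors' deposited table for newborn hepatocytes, Fcgr2b at -2.21, Clec4g at -1.92 and Eng at -1.01 were lower and Stab1 at 2.58 was higher, against 31.7% lower and 31.6% higher of all genes listed, so the share lower was near that of all genes. The cells and libraries behind the adult reference of these tables are not given in the sources used here.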

How the data were processed

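RNA-seq values were used from 21 libraries of mouse hepatocytes and liver. Expression is in RPKM as the authors deposited it in 1 matrix, and 9 further columns, which match no sample here, were left out. The submitters' processing notes name mm9, SAMtools, Cufflinks 2.2.1 and DESeq2, with no role for each. Log2 fold changes and p-values of the authors' comparison tables are as deposited; the sign against undeleted controls was turned, and the unadjusted p-values against Cre alfp were adjusted by Benjamini-Hochberg. HNF4a columns carry a barcode and were matched to groups only. The 9 genes and the gene lists were chosen with earlier results of these data known.

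Differences were fitted with limma 3.58.1 in R 4.3.3 (lmFit, eBayes with trend) on log2(RPKM + 1), with RPKM of at least 1 in 3 of 15 hepatocyte libraries, 2 of 6 liver libraries or 2 of all 21. P-values were adjusted over all tested genes. The test was checked on simulated data. No source says that replicates came from separate mice, so p-values measure the spread between libraries. Besides the 9 genes, the text names up to 3 called genes per list with the largest differences, and the 10 genes most like the mean of the 9; other names (Clec4f, Ly6g, Krt19, Epcam, Vegfa) were picked afterwards as defining genes. Relative depth came from the ratios of low RPKM values between libraries. Alternatives were another pseudocount, no filter, median scaling, quantile normalization, no minimum difference, single libraries left out, a replicate block and fits of the compared groups alone.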

Additional observations from a re-analysis of the deposited data

Results flagged for a closer look

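The following 4 results were flagged by fixed rules. Eng was at 21 RPKM in the library GGCTAC labelled HNF4a null, far above the other 3 of its group, and Pecam1 was at 6.48 RPKM in the library GTGGCCA of that group, far below its other 3. Of 40 groups of 4 libraries examined for such a stray value, these 2 passed Dixon's 95% critical value, and chance flags about 1 in 20. The effect of FoxA1 and FoxA2 loss differed between hepatocytes without and with FoxA3 for Egfl7, at -1.48, and for Kdr, at -1.18, by the interaction term in limma. Kdr reached 1 RPKM in 0 of the 4 triple null libraries and was tested only through the other groups. Both calls changed with the processing, as given below, and FoxA3 status, the kind of Cre and the remaining Foxa1 and Foxa2 cannot be told apart.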

How the results depend on the processing

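Without a minimum difference, the genes called were 3413 for triple null against FoxA3 null, 628 for Cre alfp against lox, 1658 for the interaction, 4891 for triple null against lox, 4743 against Cre alfp, 4001 for FoxA3 null against lox, 6569 for HNF4a null against control, 7229 for control liver against FoxA3 null and 8106 against lox. Of the 9 genes, 5 were then lower in triple null than in FoxA3 null and 3 higher in HNF4a null. A pseudocount of 0.1 gave 7 lower in triple null, 1303 genes for FoxA3 null against lox and 4503 for control liver against FoxA3 null. Cre alfp against lox had 174 genes when fitted alone and 182 to 285 with single libraries left out. The interaction called 0 of the 9 genes without filter and 0 after quantile normalization, 6 without both low libraries (chosen after seeing the data), and 0 to 7 with single libraries left out. With single libraries left out, triple null against lox called 3 to 6 and FoxA3 null against lox 0 to 1. FoxA3 null against lox called 0 without filter and 0 with the replicate block. The causes were not tested. Replicate numbers did not pair the samples (same-numbered libraries correlated from -0.36 to 0.12). With the block, the interaction of Egfl7 was -1.56 and that of Clec4g -1.71, of which the first lost and the second gained its call.

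Several small differences, none of them called, changed sign. For Cre alfp minus lox, Fcgr2b was 0.15 with the block and 0.24 without both low libraries. For FoxA3 null minus lox, Clec4g was -0.031 with median scaling and -0.043 with quantile normalization, and Eng 0.025 with the block. For HNF4a null minus control, Clec4g was -0.17 and Kdr -0.16 with median scaling, and Kdr -0.085 with quantile normalization. Over single libraries left out, Cre alfp minus lox ran from -0.21 to 0.35 for Egfl7, -0.048 to 0.571 for Clec4g, -0.11 to 0.38 for Eng and -0.23 to 0.24 for Fcgr2b. FoxA3 null minus lox ran from -0.49 to 0.06 for Egfl7, -0.12 to 0.27 for Clec4g, -0.318 to 0.065 for Eng, -0.047 to 0.271 for Kdr and -0.35 to 0.004 for Fcgr2b. The interaction of Stab1 ran from -0.46 to 0.11 and HNF4a null minus control for Fcgr2b from -0.099 to 0.087. Counts were not used here, so the precision of the low genes Lyve1, Pecam1 and Kdr cannot be given from depth.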
